A study of Mus musculus with 28 samples.

Results

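The 35 genes described here encode enzymes and regulators of cholesterol and fatty acid synthesis, and were picked by symbol from the 25124 genes of the deposited table. All 35 have a row. Transcripts were measured by bulk RNA sequencing of CD4+ T cells sorted from mouse small intestinal lamina propria, the tissue under the gut epithelium, as live CD45+ CD90.2+ TCRb+ CD4+ cells. All mice carried the T-bet-ZsGreen reporter, in which a fluorescent protein reports the transcription factor T-bet, so every group shares that allele. SPF isotype mice (n = 6, 3 female and 3 male) were specific-pathogen-free with a gut flora and received an isotype control antibody, and SPF aCD3 mice (n = 6, 3 female and 3 male) received an antibody against CD3, part of the T cell receptor complex. GF isotype mice (n = 10, 5 female and 5 male) and GF aCD3 mice (n = 6, 1 female and 5 male) were germ-free and received the same antibodies. Ages, antibody dose and the time from injection to sampling are not given in the sources used here. The labels do not say whether each library is 1 animal, so p-values measure the spread between these libraries.

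Cells build cholesterol from acetyl-CoA through the mevalonate pathway, which ends at farnesyl diphosphate, and then through squalene and lanosterol. Fatty acids are built from the same acetyl-CoA by a separate set of enzymes. The transcription factors SREBP1 and SREBP2, encoded by Srebf1 and Srebf2, switch on most of these genes when membranes are short of sterol: the escort protein SCAP carries them out of the endoplasmic reticulum, and INSIG proteins hold SCAP back when sterol is plentiful. The nuclear receptor LXR responds to an excess of sterol and drives genes of sterol export such as Abca1 and Abcg1, and Mylip, which limits sterol uptake. T cells that divide after engagement of their receptor need lipid for new membranes and are known to raise SREBP-driven synthesis.

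Levels are given as scaled TPM, which is the deposited TPM (a length-scaled share of the library's transcripts, computed over the whole genomic span of each gene) divided by a factor per library that brings the median gene of all libraries to a common level. Differences are log2 differences of (scaled TPM + 1) with their standard error (SE), which understate the change of low genes, and adjusted p-values are from limma with Benjamini-Hochberg adjustment over all 12182 genes tested. A gene was called at an adjusted p under 0.05. Of the 35 genes, 32 passed the low-value filter of 1 TPM in at least 6 libraries, and Scd1, Fads2 and Abca1 did not. Because the cells were sequenced in bulk, fewer cells that express a gene and less RNA per cell cannot be told apart.

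Reads in genes ran from 6765526 to 17860807 per library. The 6 markers of CD4+ T cells summed to between 1182 and 1976 scaled TPM in every library, so the sorted cell type was present by its markers. They summed to 1182 to 1416 in SPF isotype and 1680 to 1976 in SPF aCD3. All 6 were called higher there, where 30.2% of all genes were. In GF aCD3 against SPF aCD3, 4 of the 6 were called lower, where 16.7% of all genes were. Histone transcripts took 24.1 to 27.1% of TPM in SPF aCD3 libraries, 4.32 to 7.31% in SPF isotype and 4.06 to 9.54% in GF isotype. In GF aCD3 the libraries differed among themselves: 5.67% in F1, 23.8% in M1, 23.4% in M2, 7.79% in M3, 6.71% in M4 and 26.3% in M5 (letters give the sex, as the labels do). The summed level of 12 proliferation genes was also higher in M1, M2 and M5 than in the other three, at 425.8, 1885, 2214, 597.8, 457.6 and 2059 scaled TPM from F1 and M1 to M5, against 1864 to 2234 in SPF aCD3 and 342 to 618 over both isotype groups. The 7 B and plasma cell markers summed to 112 to 261 scaled TPM in SPF isotype, 3.57 to 11.6 in SPF aCD3, 9.49 to 104 in GF isotype and 7.51 to 79.2 in GF aCD3. Of these 7, 3 were tested and 2 of them were lower in SPF aCD3. The 6 stromal markers summed to 4.03 to 40.4 in SPF isotype and to at most 2.86 elsewhere, with Col1a2 at 0 in all SPF aCD3 libraries. The 2 markers of CD8 T cells summed to 5.17 to 15.7 in SPF isotype and 13.6 to 31.1 in SPF aCD3, where 1 of the 2 was higher, and to 53.1 in GF isotype M4. The part of these cells in the results below was not tested. Adipocyte markers, which would bear on lipid genes most directly, summed to between 4.86 and 10.9 scaled TPM in all libraries, with Lep at 0 in every group and Adipoq at 0 in 3 of the 4 groups.

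To show what lies upstream of genes that moved in opposite directions, stretches of 6 promoters are printed 5′ to 3′ from RefSeq on GRCm38.p6. Hmgcs1, Ebp and Fasn were higher in SPF aCD3 libraries, and Mvk, Mylip and Acat2 were lower. Capitals mark matches on either strand to CCAAT, the letters bound by the factor NF-Y (ATTGG on the other strand), and to TCACNCCAC, the core of the classical sterol regulatory element. The stretches lie between positions -247 and -1 relative to the start of transcription.
Hmgcs1 (chr13:119690104-119690320, plus strand): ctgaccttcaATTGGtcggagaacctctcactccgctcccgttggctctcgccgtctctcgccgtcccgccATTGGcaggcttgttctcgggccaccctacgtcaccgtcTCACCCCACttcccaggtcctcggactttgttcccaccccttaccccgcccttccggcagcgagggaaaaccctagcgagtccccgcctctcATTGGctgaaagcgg
Ebp (chrX:8193553-8193692, minus strand): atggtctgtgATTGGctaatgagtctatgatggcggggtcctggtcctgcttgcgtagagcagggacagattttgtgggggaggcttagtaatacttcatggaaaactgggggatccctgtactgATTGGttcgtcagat
Fasn (chr11:120824592-120824647, minus strand): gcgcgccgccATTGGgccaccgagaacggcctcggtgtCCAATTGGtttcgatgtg
Mvk (chr5:114444086-114444268, plus strand): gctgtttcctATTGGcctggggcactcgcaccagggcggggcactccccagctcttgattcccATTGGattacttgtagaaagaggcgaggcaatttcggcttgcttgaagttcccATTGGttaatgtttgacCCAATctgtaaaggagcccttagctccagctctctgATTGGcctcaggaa
Mylip (chr13:45389542-45389689, plus strand): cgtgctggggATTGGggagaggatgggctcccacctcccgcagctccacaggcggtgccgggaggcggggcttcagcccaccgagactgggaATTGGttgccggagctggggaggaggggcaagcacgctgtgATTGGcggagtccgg
Acat2 (chr17:12960726-12960805, minus strand): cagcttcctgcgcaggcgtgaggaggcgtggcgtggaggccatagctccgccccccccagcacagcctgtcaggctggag

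The table of RefSeq promoters used here had a window of 250 upstream bases for 27 of the 35 genes, and for 26 of them a window began at the start that the deposited table uses. CCAAT occurred in 17 of these 26 windows and in 33.9% of all 32851 promoter windows of the same length. TCACNCCAC occurred in 1, that of Hmgcs1, 137 bases upstream, and in 1.05% of all windows. GGGCGG, the letters of the factor Sp1, occurred in 22 of 26 and in 32.7% of all windows. CACGTG, the E-box that SREBPs can also bind, occurred in 4 of 26 (Hsd17b7, Sc5d, Insig1 and Abca1) and in 6.02% of all windows. Both directions of change included promoters with CCAAT: 5 matches upstream of Mvk, 3 upstream of Mylip, 3 upstream of Hmgcs1 and Fasn each, 2 upstream of Ebp and 0 upstream of Acat2. Upstream of Fasn, 2 of the matches overlap on opposite strands. These are matches of letters within this window only.

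The first comparison asked how these genes responded to aCD3 in mice with a gut flora. In SPF mice, 14 of the 32 genes tested rose after aCD3 and 4 fell, and the pathway did not move as a block. Over all genes tested, 30.2% were called higher and 29.8% lower in this comparison, so a share of 43.8% higher and 12.5% lower among these genes is to be read against a background in which most genes were called. The median difference over the 32 genes was 0.05, against -0.01 over all genes tested. With TPM as deposited, in which the median gene moved by -0.35, 4 of the genes were higher (Hmgcs1, Pmvk, Fdps and Ebp) and 18 lower, near the shares of all genes in that fit (14.2% higher and 50.7% lower). Statements below are thus relative to the median gene.

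Among the 7 genes of the mevalonate steps, 3 rose, 2 fell and Mvd and Idi1 did not pass the test. Hmgcs1 (chr13:119690351-119708260 in mm10), which makes HMG-CoA near the head of the pathway, stood at 21.8, 23.3, 21.9, 22.4, 25.7 and 26.4 scaled TPM in SPF isotype (F1 to F3, then M1 to M3) and at 33, 40.8, 38.8, 32.9, 45.4 and 38.8 in SPF aCD3. The groups did not overlap, and the means rose from 23.6 ± 1.96 to 38.3 ± 4.81 (SD, n = 6 each), a log2 difference of 0.67 (SE 0.12, adjusted p = 6.06e-05). Pmvk, phosphomevalonate kinase, stood at 3.75, 1.41, 3.81, 3.17, 3.05 and 3.48 in SPF isotype and at 5.33, 8.03, 7.35, 9.70, 5.53 and 6.0 in SPF aCD3. Every treated library was above every control, with a difference of 0.97 (SE 0.19, adjusted p = 0.000106). Fdps (chr3:89093588-89101967), which makes farnesyl diphosphate at the branch to sterols and prenyl groups, stood at 10.3, 10.5, 9.93, 7.19, 8.93 and 7.90 in controls and at 13.9, 18.4, 21.9, 18.7, 18.5 and 20.1 after aCD3. It rose by 0.95 (SE 0.16, adjusted p = 2.26e-05), again with no overlap.

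The enzyme between Hmgcs1 and Pmvk in this list went the other way. Mvk (chr5:114444269-114460590), mevalonate kinase, stood at 4.61, 6.58, 3.83, 3.39, 7.49 and 7.47 scaled TPM in SPF isotype and at 1.19, 2.08, 2.90, 2.02, 2.49 and 1.72 in SPF aCD3. All 6 treated libraries lay below all controls, a fall of 1.07 (SE 0.29, adjusted p = 0.00242), and a mean of 49 reads stood behind each treated value. A ratio of 2 genes within a library is independent of how that library is scaled, and Pmvk to Mvk ran from 0.215 to 0.993 in SPF isotype and from 2.22 to 4.81 in SPF aCD3. This ratio was chosen after the values were seen and is given without a test. Acat2 (chr17:12943042-12960725), which condenses acetyl-CoA ahead of HMG-CoA synthase, stood at 8.36, 9.09, 8.69, 8.56, 9.79 and 8.67 in controls and at 6.49, 4.74, 4.91, 6.63, 5.34 and 6.11 after aCD3. It fell by 0.56 (SE 0.12, adjusted p = 0.000257) with no overlap. The ratio of Hmgcs1 to Acat2, also picked after the values were seen, ran from 2.52 to 3.04 in SPF isotype and from 4.96 to 8.62 in SPF aCD3.

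**Figure D1:**
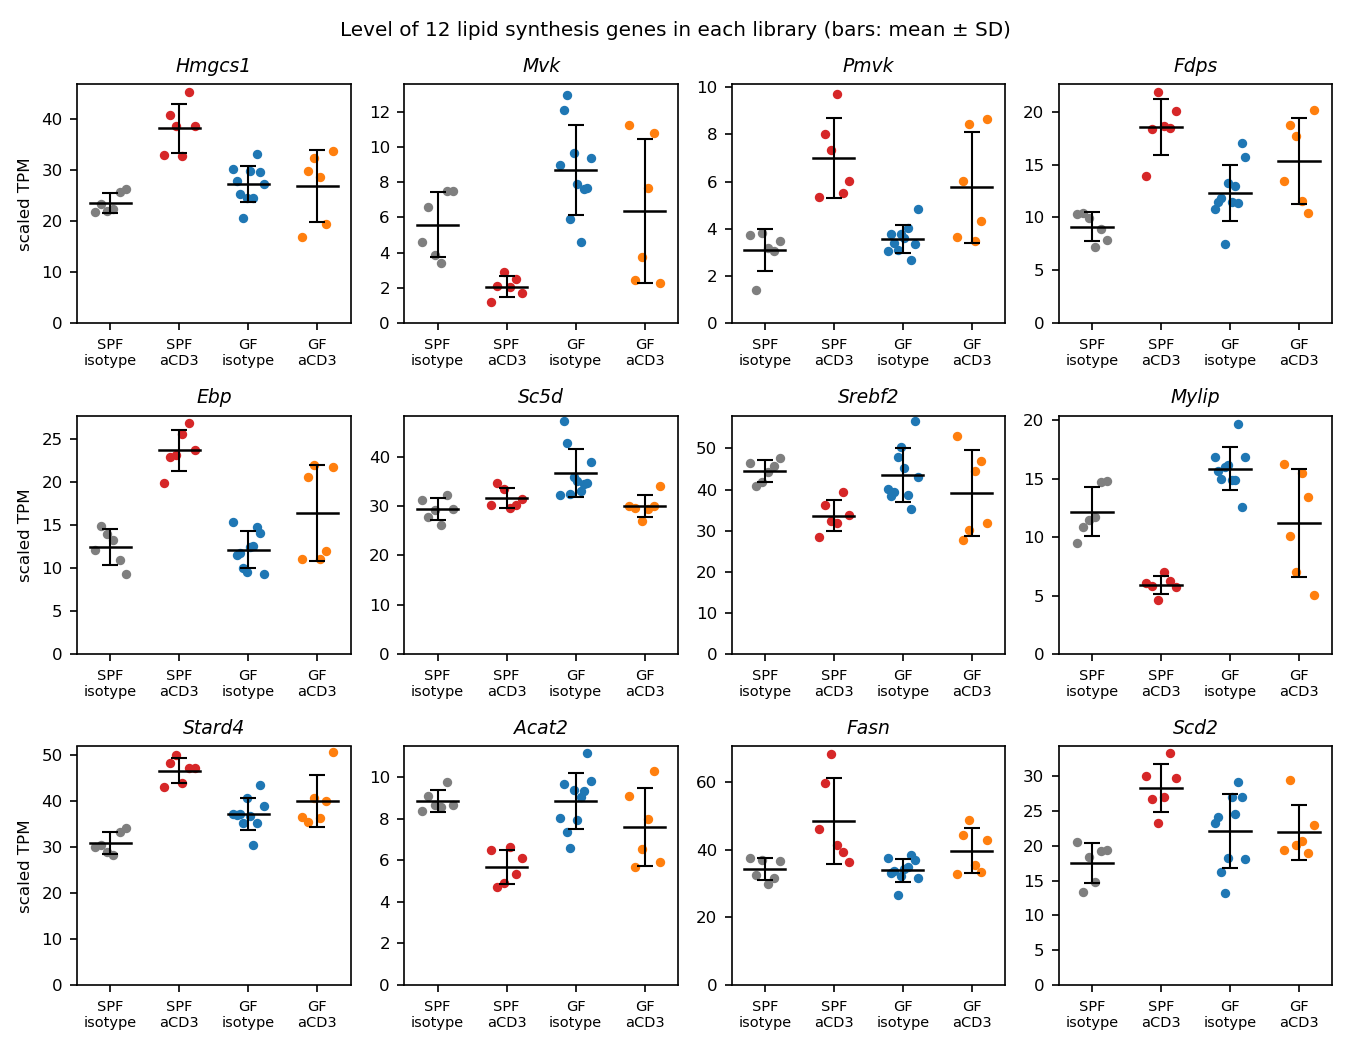
Level of 12 genes in each library, in scaled TPM on axes that start at 0. Points are libraries in 4 groups (SPF isotype, SPF aCD3, GF isotype, GF aCD3), the long line is the mean and the bar is ± SD. In SPF mice Hmgcs1, Pmvk, Fdps, Ebp, Stard4 and Scd2 lay higher after aCD3 and Mvk, Srebf2, Mylip and Acat2 lower without overlap, while GF aCD3 libraries of Mvk spread from 2.27 to 11.2.

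Of the 11 genes from squalene to cholesterol, 3 rose, none fell and 8 did not pass the test by limma. At an unadjusted p under 0.05 and by voom on recovered reads, 0 of the 11 were lower as well, but with TPM as deposited 8 were (Sqle, Lss, Cyp51, Tm7sf2, Msmo1, Nsdhl, Hsd17b7 and Sc5d). Ebp (chrX:8185329-8193512), the sterol isomerase also known as emopamil binding protein, stood at 12.1, 14.9, 14.0, 13.3, 11 and 9.30 scaled TPM in SPF isotype and at 19.9, 22.9, 23.1, 25.5, 26.8 and 23.7 in SPF aCD3. The groups were apart, with a difference of 0.89 (SE 0.16, adjusted p = 5.74e-05). Fdft1 (chr14:63145151-63177887), squalene synthase and the first enzyme committed to sterols, rose from 9.20 ± 1.43 to 14.1 ± 1.08 (SD, n = 6 each), by 0.58 (SE 0.12, adjusted p = 0.000307), with 6 of 6 treated libraries above all controls. Its row overlaps Ctsb by 773 bases on the opposite strand, and Ctsb went from a mean of 46.8 to 168. Strand use in counting is not stated, so reads of both genes in the overlap cannot be told apart. Dhcr7, the last reductase of the pathway, rose by 0.25 (SE 0.08, adjusted p = 0.00707) from 9.06 ± 0.752 to 11 ± 0.919, with 5 of 6 treated libraries above all controls.

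The other enzymes between squalene and cholesterol did not pass the test, with 4 of 6 SPF aCD3 libraries of Sqle and 2 of 6 of Hsd17b7 and of Tm7sf2 below all controls. Sqle, squalene epoxidase, which is often rate-limiting, stood at 14.7 ± 2.05 in SPF isotype and 12.4 ± 1.11 in SPF aCD3, a difference of -0.22 with a 95% interval from -0.44 to 0.00 (adjusted p = 0.0844). Cyp51, lanosterol demethylase, stood at 38.5 ± 3.84 and 37.6 ± 4.52 (difference -0.03, interval -0.28 to 0.22). Msmo1, the C4 methyl sterol oxidase, stood at 20.7 ± 3.70 and 19.7 ± 2.79 (-0.06, interval -0.30 to 0.18). Nsdhl, which works with Msmo1 at the C4 position, differed by 0.01 (interval -0.18 to 0.20). Sc5d, the desaturase after Ebp, stood at 29.3 ± 2.24 and 31.6 ± 2.02, a difference of 0.11 (interval -0.06 to 0.27). The intervals for these 5 genes end below the rise measured for Ebp. Lss, lanosterol synthase, whose row shares 11269 bases with an antisense gene, differed by -0.26 (interval -0.55 to 0.03) and Hsd17b7, a ketoreductase, by -0.24 (-0.53 to 0.05). Tm7sf2, a sterol reductase with a mean of only 21.7 reads per SPF aCD3 library, differed by -0.27 (-0.76 to 0.22). Upstream of squalene, Mvd, which decarboxylates diphosphomevalonate, differed by -0.13 (-0.38 to 0.12) and Idi1, the isopentenyl isomerase, by 0.09 (-0.15 to 0.34).

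Of the 5 regulators, 2 rose and 1 fell, and the SREBP genes went in opposite directions relative to the median gene. In the deposited TPM, Srebf1 (-0.17) and Scap (-0.20) had the opposite sign and did not pass, no regulator rose, and Insig1 (-0.63, adjusted p = 0.00343) and Insig2 (-0.40, adjusted p = 0.00603) were called lower. Srebf2 (chr15:82147269-82204960), whose product mainly drives sterol genes, stood at 46.5, 40.8, 41.9, 44.2, 45.7 and 47.7 scaled TPM in SPF isotype and at 28.6, 36.2, 32.3, 31.8, 39.4 and 33.9 in SPF aCD3. It fell by 0.40 (SE 0.13, adjusted p = 0.0123) without overlap. In the same comparison the sterol genes were mixed. Of the 7 genes of the mevalonate steps, 3 were higher and 2 lower, and of the 11 from squalene to cholesterol, 3 were higher and 0 lower. Srebf1, whose product mainly drives fatty acid genes, rose by 0.23 (SE 0.09, adjusted p = 0.0236) from 34.8 ± 3.67 to 41.1 ± 4.91, with overlap: 2 of 6 treated libraries lay above all controls. The call was lost without SPF aCD3 F2 or F3 or SPF isotype F2 or M3. The ratio of Srebf1 to Srebf2, picked after the values were seen and given without a test, ran from 0.621 to 0.945 in SPF isotype and from 0.957 to 1.5 in SPF aCD3. Scap rose by 0.15 (SE 0.06, adjusted p = 0.0412), a call lost without SPF aCD3 F2 or F3 or SPF isotype F1, F2 or F3, without the low-value filter, with the filter of 5 TPM and with the replicate block (adjusted p from 0.05004 to 0.0619 in those 3 fits). Insig1, itself a sterol-controlled SREBP target, stood at 71.4 ± 10.5 and 60.8 ± 4.98, a difference of -0.22 (interval -0.50 to 0.06, adjusted p = 0.165), and Insig2 differed by -0.06 (-0.27 to 0.15).

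Stard4, a soluble carrier that moves cholesterol between membranes and is a known SREBP2 target, had the smallest adjusted p of the 32. It stood at 29.9, 30.5, 28.9, 28.3, 33.3 and 34.0 scaled TPM in SPF isotype and at 43.0, 48.2, 50.0, 43.8, 47.2 and 47.1 in SPF aCD3. The lowest treated library was well above the highest control, and the difference was 0.58 (SE 0.08, adjusted p = 3.15e-06). With TPM as deposited it was 0.18 (adjusted p = 0.113).

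Of the 8 fatty acid genes, 6 were tested, 5 of which rose; Acaca did not pass. Scd2, the stearoyl-CoA desaturase that puts the double bond into stearate, stood at 20.5, 13.3, 18.3, 14.7, 19.2 and 19.4 scaled TPM in SPF isotype and at 30.0, 26.7, 23.3, 27, 33.3 and 29.7 in SPF aCD3. The groups did not overlap (difference 0.67, SE 0.14, adjusted p = 0.00032). Fasn, fatty acid synthase, stood at 37.7, 32.5, 36.9, 30.0, 31.7 and 36.7 in controls and at 46.1, 59.7, 68.4, 41.3, 39.2 and 36.3 after aCD3. It rose by 0.46 (SE 0.13, adjusted p = 0.00316), with F2 and F3 highest and M3 within the controls. Fads1, the delta-5 desaturase of polyunsaturated fatty acids, rose by 0.37 (SE 0.11, adjusted p = 0.00472) and Elovl6, which lengthens palmitate to stearate, by 0.33 (SE 0.09, adjusted p = 0.00387), each with 5 of 6 treated libraries above all controls. Acly, which makes cytosolic acetyl-CoA from citrate, rose by 0.13 (SE 0.06, adjusted p = 0.0413), from 24.6 ± 1.4 to 27 ± 1.65, and lost its call when any one of 7 libraries was left out (SPF aCD3 F2, F3, M1 and M2, SPF isotype F2, M2 and M3), by voom (adjusted p = 0.0544) and with the replicate block (0.0534). Acaca, acetyl-CoA carboxylase, stood at 1.38 ± 0.191 and 1.11 ± 0.188 (difference -0.17, interval -0.33 to -0.01, adjusted p = 0.0637), and was called lower by voom (-0.30). Scaling decides the direction for several of these: with TPM as deposited no fatty acid gene passed as higher. In that fit Acly (-0.27, adjusted p = 0.00162) and Acaca (-0.38, adjusted p = 0.002) were called lower. Elovl6 and Fads1 had differences of -0.0155 and -0.0097 that did not pass (adjusted p = 0.92 and 0.952).

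Scd1, Fads2 and Abca1 lay too low for the main test. Fads2, the delta-6 desaturase, was at 0.119 ± 0.0569 scaled TPM in SPF isotype and 0.507 ± 0.243 in SPF aCD3, from means of 8.33 and 29.5 reads, and every treated library was above every control. Scd1, the paralog of Scd2, had means of 1.33 to 6.0 reads per library in the 4 groups, too few for a comparison, while Scd2 had 416 to 597. The paralogs may share reads, and how the counting treated reads that fit both is not stated. The export pump Abca1, an LXR target, was at 0.0723 ± 0.0393 and 0.338 ± 0.110 in the same 2 groups, from 17 and 61 reads, again without overlap. In a fit without the low-value filter, over 20695 genes, limma gave 0.42 for Fads2 (SE 0.09, adjusted p = 0.000718) and 0.32 for Abca1 (SE 0.07, adjusted p = 0.000853).

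Of the other LXR targets, Mylip fell and Abcg1 did not pass. Mylip (chr13:45389742-45411940), a ubiquitin ligase that sends the LDL receptor to degradation, stood at 9.55, 10.9, 11.4, 11.8, 14.7 and 14.8 scaled TPM in SPF isotype and at 6.12, 5.79, 4.65, 7.04, 6.24 and 5.76 in SPF aCD3. The means went from 12.2 ± 2.12 to 5.93 ± 0.782 with no overlap, a fall of 0.92 (SE 0.18, adjusted p = 0.000154). Abcg1, a sterol exporter, differed by -0.03 (interval -0.28 to 0.22). The 3 LXR targets thus had different values in the same libraries: Mylip lower, Abca1 higher at a very low level, and Abcg1 with a difference that did not pass. In the deposited TPM Abcg1 was called lower (-0.37, adjusted p = 0.0241).

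**Figure D2:**
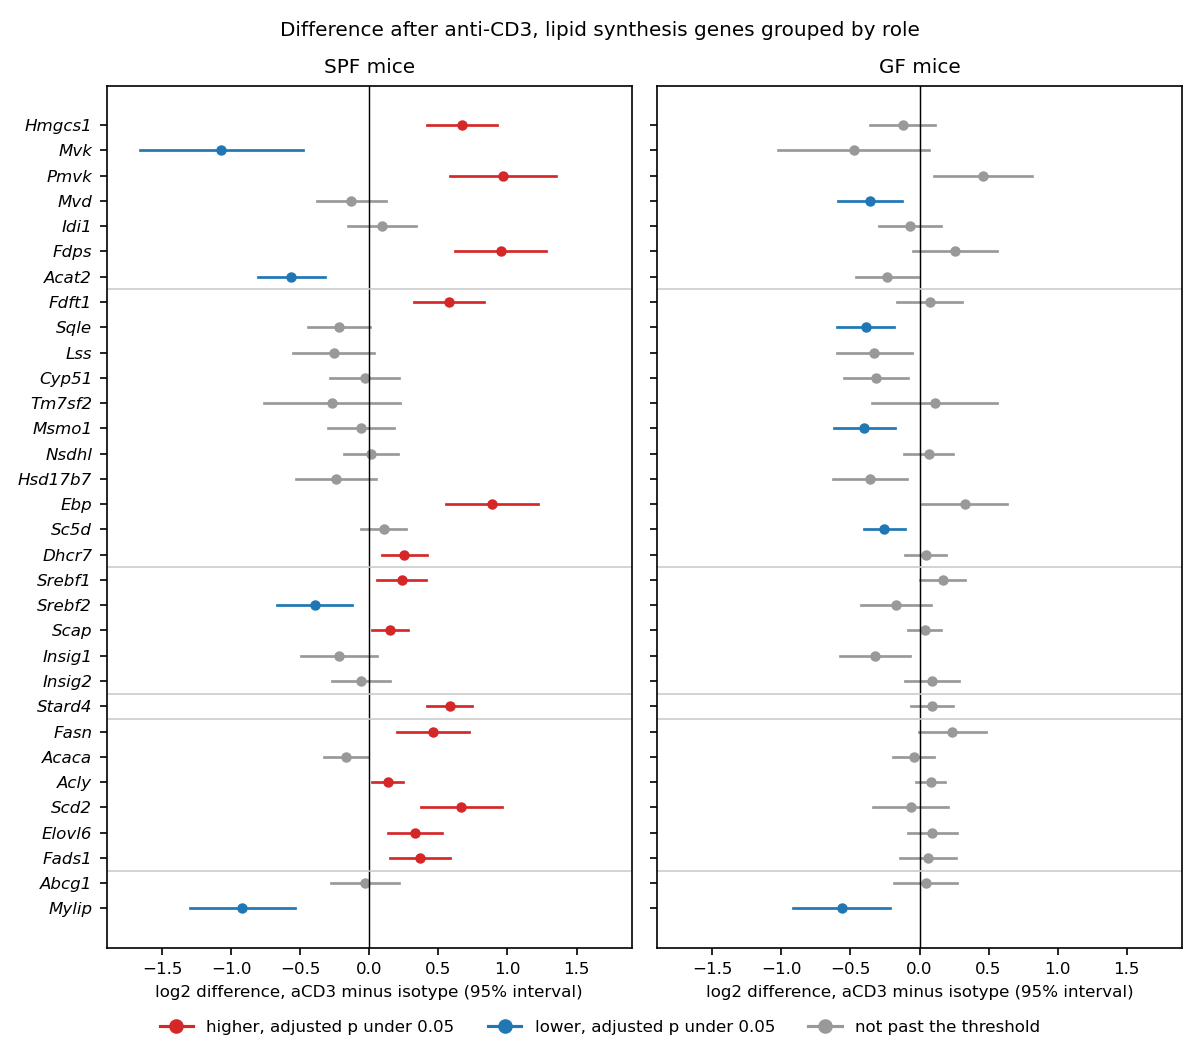
Log2 difference of aCD3 minus isotype for the 32 genes tested, with 95% intervals, in SPF mice (left) and GF mice (right). Genes are in order of role, from the mevalonate steps at the top to LXR targets at the bottom, with lines between roles; red and blue mark adjusted p under 0.05. In SPF mice the range ran from -1.07 for Mvk to 0.97 for Pmvk, and in GF mice 5 genes passed, all lower.

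Other genes of lipid metabolism gave a mixed count in SPF mice. Of 30 further genes of SREBP processing and lipid synthesis, 26 were tested, 6 rose and 7 fell, with a median difference of -0.09, against the 30.2% higher and 29.8% lower over all genes. The shares of this list lie near that background. Elovl1, an elongase of very long saturated chains, rose most, from a mean of 53.2 to 145 scaled TPM (1.43, SE 0.15, adjusted p = 3.19e-07). Acsl5, an acyl-CoA synthetase, rose by 0.91 (adjusted p = 3.65e-06), while Lpin1, a phosphatidate phosphatase, fell by 0.65 (adjusted p = 5.18e-05) and Hacd3 by 0.55 (adjusted p = 0.000275). Of 19 genes of sterol handling and LXR, 14 were tested, 5 rose and 5 fell. Npc2, which exports cholesterol from lysosomes, rose by 1.00 (adjusted p = 1.46e-06) and Lpcat3, a phospholipid remodelling enzyme, by 0.57 (adjusted p = 4.78e-05). Soat2, which esterifies cholesterol, fell by 0.99 (adjusted p = 0.000136) and Ncoa1, a coactivator of nuclear receptors, by 0.97 (adjusted p = 5.35e-06). Of 15 genes of fatty acid oxidation, 8 rose and 3 fell with a median difference of 0.42. Slc25a20, the carnitine carrier of mitochondria, rose by 0.68 (adjusted p = 1.61e-05), and Eci1, an enoyl-CoA isomerase, fell by 0.80 (adjusted p = 7.64e-06). All 12 proliferation genes rose, with a median difference of 2.74. In GF mice, where 5.62% of all genes were higher and 4.02% lower, 2 of the 26 rose and 0 fell, 0 of the 14 rose and 1 fell, and 1 of the 15 rose and 1 fell, while 9 of the 12 proliferation genes rose. Elovl1 rose by 0.48 there (adjusted p = 0.0417), Acsl5 by 0.42 (adjusted p = 0.0411), and Soat2 fell by 0.62 (adjusted p = 0.0421).

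In germ-free mice the same question gave another count. By limma 0 of the 32 genes rose after aCD3 and 5 fell, where 5.62% of all genes were called higher and 4.02% lower. At an unadjusted p under 0.05, 3 were higher (Pmvk, Ebp and Srebf1) and 10 lower, together 40.6% where 33.1% of all genes passed, and voom called 0 higher and 4 lower. Of all 12182 genes, voom called 514 higher and 428 lower. With TPM as deposited 0 were higher and 7 lower, against 2.46% and 4.61% of all genes. The 5 that fell lay just past the threshold: Msmo1 by 0.40 (SE 0.11, adjusted p = 0.0399), Sqle by 0.39 (SE 0.10, adjusted p = 0.0399), Sc5d by 0.25 (SE 0.07, adjusted p = 0.0411), Mylip by 0.56 (SE 0.17, adjusted p = 0.0432) and Mvd by 0.36 (SE 0.11, adjusted p = 0.0469). Of these, 4 are enzymes of sterol synthesis that did not pass in SPF mice. Of the 32, Mylip alone passed with the same sign in both floras.

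The levels behind these calls show how far the groups lay apart. Msmo1 ran from 21.5 through a median of 23.9 to 29.2 scaled TPM in the 10 GF isotype libraries and stood at 20.1, 15.0, 15.4, 20.1, 19.3 and 20.2 in GF aCD3 (F1, then M1 to M5). All 6 treated libraries lay below all controls, with M1 and M2 lowest. Sqle ran from 12.4 through 15.4 to 19.3 in GF isotype and stood at 11.6, 9.33, 11.2, 16.2, 11.3 and 11.7, so that 5 of 6 were below all controls and M3 was above the control median. Sc5d ran from 32.3 through 34.9 to 47.3 and stood at 30.0, 29.5, 26.9, 29.5, 30.0 and 34.0. Only M5 reached into the controls. Mvd ran from 4.22 through 5.40 to 7.67 and stood at 5.91, 3.02, 4.14, 3.23, 3.07 and 4.43, with 4 of 6 below all controls.

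These 5 calls depended on single libraries, as did those of all genes. Without GF aCD3 M1, M2 or M5, 0 of the 32 genes were called, and without F1 there were 11, 3 higher (Pmvk, Ebp and Srebf1) and 8 lower. Without M3 there were 10 and without M4 8. Over all genes, 1772 were higher and 1549 lower without M3, and 1720 and 1498 without M4. Without GF isotype F2, M1, M2, M3, M4 or M5 there were also 0, and without any other library between 2 and 4. In each of these fits with 0, 0 of all genes tested were called as well, and without F1 1878 genes were higher and 1565 lower. With any 1 library left out, the difference lay between -0.43 and -0.35 for Msmo1, between -0.47 and -0.33 for Sqle, between -0.29 and -0.23 for Sc5d, between -0.74 and -0.39 for Mylip and between -0.47 and -0.31 for Mvd. Of these 28 fits, the call was kept in 19 for Msmo1 and Sqle each, 15 for Sc5d, 6 for Mylip and 4 for Mvd. The GF libraries fall into 2 runs of sample numbers in the column names, 25 to 33 and 48 to 54, each with 3 GF aCD3 libraries and isotype libraries of both sexes. Within the first run the differences were -0.50 for Msmo1, -0.41 for Sqle, -0.34 for Sc5d, -0.60 for Mylip and -0.56 for Mvd, and within the second -0.32, -0.35, -0.17, -0.52 and -0.13. All 5 kept their sign in both runs, and 0 passed in either, where 0 of all genes passed as well. Blocking on replicate name also left 0, of these genes and of all.

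GF aCD3 libraries were uneven for several genes called in SPF mice, though not for all of them. Ebp stood at 11 in F1, 20.6 in M1, 22 in M2, 11 in M3, 12 in M4 and 21.8 in M5, beside 9.33 to 15.3 in GF isotype and 19.9 to 26.8 in SPF aCD3. Mvk stood at 11.2, 2.43, 3.73, 7.68, 10.8 and 2.27 in the same order, beside 4.57 to 12.9 in GF isotype. Pmvk stood at 3.65, 6.01, 8.43, 3.47, 4.31 and 8.64, beside 2.66 to 4.82. In all 3 genes, M1, M2 and M5 lay outside the range of GF isotype and F1, M3 and M4 within it. Srebf2 stood at 53.1, 27.6, 30.3, 44.6, 47.0 and 31.9, beside 35.3 to 56.6 in GF isotype, and Mylip at 16.2, 10.1, 6.99, 15.5, 13.5 and 5.01, beside 12.6 to 19.7. Both had the same split. Fdps stood at 13.5, 18.7, 17.7, 11.6, 10.4 and 20.2, beside 7.47 to 17.1. Hmgcs1, Scd2 and Stard4, which had moved more in SPF mice than Srebf2, did not have this split by range: 1 library of each lay above all GF isotype libraries (M5, M1 and M5), and for Hmgcs1 F1 and M4 lay below them, although M1, M2 and M5 were its highest. The same libraries M1, M2 and M5 held the larger histone shares and proliferation sums given above, and the part of this in the lipid genes was not tested. F1 and M4 held more of 2 other marker sums: the 12 epithelial markers summed to 27.3 and 22.3 scaled TPM in them, beside 7.58 to 9.75 in the other GF aCD3 libraries and 5.11 to 43.9 in GF isotype. The 10 myeloid markers summed to 9.91 and 11.5, beside 0.479 to 1.35 and 0.0884 to 10.9. Some other marker sums did separate M1, M2 and M5 from F1, M3 and M4. B and plasma cell markers summed to 7.51, 9.32 and 8.80 in M1, M2 and M5, and to 17.1, 79.2 and 26.4 in F1, M3 and M4. In the same order, CD8 markers summed to 14.6, 10.8 and 15.5, and to 3.05, 4.48 and 6.52. CD4 markers summed to 1823, 1650 and 1754, and to 1312, 1218 and 1297. The adipocyte, stromal and erythroid sums did not separate them. The part of these marker sums was not tested either. The libraries are 1 labelled group and were kept as 1 in every test.

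**Figure D3:**
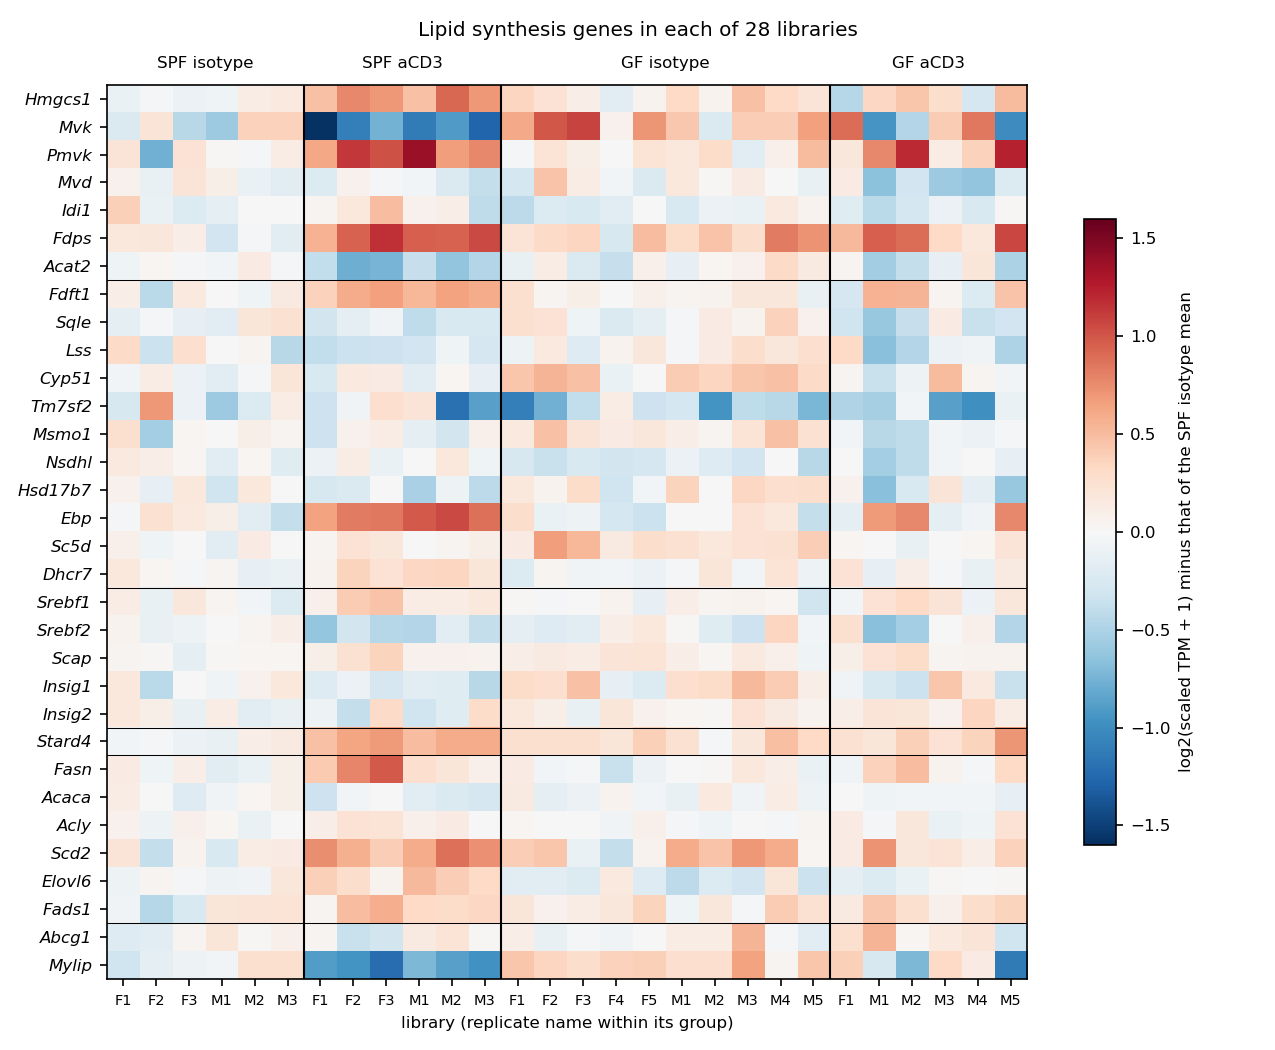
Each of the 32 genes tested (rows, by role) in each of the 28 libraries (columns, named by replicate within the 4 groups), as log2(scaled TPM + 1) minus the same of the SPF isotype mean, with colours from -1.6 (blue) to 1.6 (red). Values ran from -1.58 to 1.38. Among GF aCD3 columns, M1, M2 and M5 are blue for Mvk, Srebf2 and Mylip and red for Ebp and Fdps, as SPF aCD3 columns are.

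The next comparison asked whether the flora mattered without aCD3. Between isotype groups 1 of the 32 genes was higher in GF and 0 lower by limma, where 0.517% of all genes were higher and 1.16% lower. At an unadjusted p under 0.05, 8 were higher and 2 lower (Tm7sf2 and Nsdhl), together 31.2% where 13.1% of all genes passed, and voom called 1 and 0. Of all 12182 genes, voom called 60 higher and 165 lower. With TPM as deposited 6 were higher and 0 lower, against 6.42% and 0.755% of all genes. The gene was Sc5d (chr9:42254177-42264300), at 29.3 ± 2.24 (SD, n = 6) in SPF and 36.7 ± 4.90 (n = 10) in GF, a difference of 0.31 (SE 0.07, adjusted p = 0.0213). All 10 GF libraries were above all 6 SPF libraries, and the call was lost without SPF isotype F2, F3 or M1. Cyp51 was at 38.5 ± 3.84 and 49.1 ± 6.80 (0.34, SE 0.11, adjusted p = 0.126) and passed in 3 other fits: a block on replicate name (0.45, adjusted p = 0.0153), a term for the run (0.40, adjusted p = 0.0422) and TPM as deposited (0.50, adjusted p = 0.0366). Stard4 was at 30.8 ± 2.32 and 37.1 ± 3.44 (0.26, SE 0.07, adjusted p = 0.0661), and passed with TPM as deposited (0.42, adjusted p = 0.00479) and without GF aCD3 M5 or GF isotype M2. SPF and GF libraries have separate sample numbers, so any run difference and the flora cannot be told apart.

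Among aCD3 libraries, 3 of the 32 genes were higher in GF than in SPF and 7 lower, against 16.1% higher and 16.7% lower over all genes, shares of 9.4% and 21.9% among these genes. This comparison depended on scaling: with TPM as deposited, where the median gene moved by 0.34, 13 were higher and 0 lower, and 48.9% of all genes were higher and 4.46% lower. Mvk was higher in GF by 1.15 (SE 0.29, adjusted p = 0.00617), Mylip by 0.72 (SE 0.19, adjusted p = 0.00738) and Acat2 by 0.32 (SE 0.12, adjusted p = 0.048), the 3 genes that had fallen most in SPF mice. The call of Acat2 was kept in 9 of 28 fits with 1 library left out, and was lost with a pseudocount of 5, without the filter, with the block and with the run term. Elovl6 was lower by 0.41 (SE 0.10, adjusted p = 0.00399) with all 6 GF libraries, 3.68 to 4.56, below all 6 SPF libraries, 4.69 to 6.85. Hmgcs1 was lower by 0.60 (SE 0.13, adjusted p = 0.00194), with 5 of 6 GF libraries below all SPF libraries. Ebp (0.60), Scd2 (0.44), Fdft1 (0.41), Stard4 (0.23) and Dhcr7 (0.22) were lower with adjusted p-values from 0.0103 to 0.0371. Without GF aCD3 F1 the total fell from 10 to 4, and with a block on replicate name to 5 (Hmgcs1, Mvk, Stard4, Elovl6 and Mylip). Over all genes the calls fell likewise, from 1956 higher and 2032 lower to 842 and 823 without F1 and to 1322 and 1259 with the block.

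Whether the response to aCD3 itself differed between floras was tested as an interaction. The log2 response was lower in GF than in SPF for 5 of the 32 genes and higher for 0, where it was lower for 6.03% and higher for 5.3% of all genes. Of the 5, 4 rose in SPF mice and did not pass in GF mice, while Sc5d fell in GF (-0.25) beside a difference of 0.11 in SPF that did not pass. At an unadjusted p under 0.05 these were 9 and 0, a share of 28.1% where 32.8% of all genes passed in either direction, and voom called 6 and 0. Of all 12182 genes, voom called 897 lower and 927 higher. Hmgcs1 had the largest difference of responses, -0.79 (SE 0.17, adjusted p = 0.0102): it rose by 0.67 in SPF mice, and in GF mice the difference was -0.12 (interval -0.36 to 0.11). GF libraries of Hmgcs1 ran from 20.7 through 27.6 to 33.2 in isotype and stood at 16.9, 30.0, 32.5, 28.8, 19.4 and 33.8 after aCD3, so 1 was above all controls and 2 below. Stard4 differed by -0.49 (SE 0.11, adjusted p = 0.0118), with differences of 0.58 in SPF and 0.09 (interval -0.06 to 0.24) in GF. Scd2 differed by -0.73 (SE 0.19, adjusted p = 0.025), with 0.67 in SPF and -0.06 (interval -0.34 to 0.21) in GF. Fdps differed by -0.70 (SE 0.22, adjusted p = 0.0427) and Sc5d by -0.36 (SE 0.11, adjusted p = 0.037). Hmgcs1 and Stard4 kept their calls when any of the 28 libraries was left out. The other 3 calls were each lost without GF aCD3 F1 or M4. Of the 28 fits, Scd2 kept its call in 26, Sc5d in 19 and Fdps in 9. Fdps also lost its call without the low-value filter (limma adjusted p = 0.0644). Without F1 the count was 2, and over all genes the calls fell from 646 higher and 735 lower to 106 and 127.

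With TPM as deposited only Hmgcs1 kept the interaction call (-0.56, adjusted p = 0.0412). For Mvk the responses were a fall of 1.07 in SPF and a difference of -0.48 in GF (interval -1.02 to 0.07), and their difference was 0.59 (interval -0.21 to 1.4, adjusted p = 0.294). For Pmvk they were 0.97 and 0.46, with a difference of -0.51 (interval -1.03 to 0.02, adjusted p = 0.164). For Ebp they were 0.89 and 0.33, with a difference of -0.56 (interval -1.02 to -0.11, adjusted p = 0.0848). For these 3 genes the response was not shown to differ between the floras.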

How the data were processed

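Bulk RNA sequencing of 28 sorted CD4+ T cell libraries was used. The authors deposited TPM per gene on mm10, made with HOMER over 25124 genes, per the file headers; the length used is the whole genomic span in 99.27% of rows, so levels are not compared between genes. The aligner and the use of strand are not given in the sources used here, and the labels name polyA RNA beside a total-RNA kit. A further 26 TPM columns match no sample here and were not used. Whole reads were recovered from the TPM steps in 100% of low values (tolerance 0.1 reads). TPM was divided by median-of-ratios size factors (0.716 to 1.23, over 11055 genes). Genes with at least 1 TPM in at least 6 libraries (12182) were tested with limma 3.58.1 in R 4.3.3 on log2(value + 1), with a mean per group, a sex term and a trended variance, and Benjamini-Hochberg adjustment over all genes (threshold 0.05). The fit was tested on simulated data, with known changes and raised histone genes in the SPF aCD3 libraries. It called 86% of genes with a log2 change of 1 or -1 in the true direction. For changes of 0.5 and -0.5 it called 42% and 32%, so many changes of that size were missed. Of unchanged genes it called 0.109%, and 74.2% with TPM as deposited. Tables were handled with Python 3.11.15, NumPy 2.4.6 and pandas 2.3.3. Correlations between libraries ran from 0.856 to 0.973 over 378 pairs, and 0 pairs were identical. Depth, and the number of libraries, limit precision: a mean of 49 reads stood behind Mvk in SPF aCD3. All 35 genes are named by role. Of the other lists, a gene is named only if it had one of the 2 highest or 2 lowest differences among those called and reached a group mean of 5 TPM. The members and gene lists were chosen with earlier results of these data known. Alternatives were TPM as deposited, voom on recovered reads, pseudocounts of 0.1 and 5, no filter or one of 5 TPM, a replicate block, a run term, separate runs and each library left out.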

Additional observations from a re-analysis of the deposited data

Results flagged for a closer look

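Among 128 sets of 1 gene in 1 group, 7 held a library far from the others, where chance alone gives about 1 in 20 sets, or 6.4. Pmvk was low in SPF isotype F2, at 1.41 scaled TPM beside 3.05 to 3.81 in the others. The same library was low for Msmo1, at 13.9 beside 20.7 to 25.1. Lss was high in SPF aCD3 M2, at 4.35 beside 3.28 to 3.65. Scap was low in SPF isotype F3, at 4.63 beside 5.36 to 5.45. Stard4 was high in GF aCD3 M5, at 50.7 beside 35.5 to 40.6. Fasn was low in GF isotype F4, at 26.5 beside 31.7 to 38.5. Abcg1 was high in GF isotype M3, at 7.90 beside 4.36 to 5.60.

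The response to aCD3 was called different between floras for 5 of the 32 genes by limma's interaction test, with Benjamini-Hochberg adjustment over all genes. All 5 were lower in GF, a share of 15.6%, where 6.03% of all genes were lower and 5.3% higher. GF minus SPF, on the log2 scale, the difference was -0.79 for Hmgcs1 (adjusted p = 0.0102), -0.49 for Stard4 (0.0118), -0.73 for Scd2 (0.025), -0.36 for Sc5d (0.037) and -0.70 for Fdps (0.0427). The calls of Scd2, Sc5d and Fdps were each lost without GF aCD3 F1 or M4, and with TPM as deposited only Hmgcs1 kept its call. Histone share and proliferation sums also differed among GF aCD3 libraries, and their part in these 5 differences was not tested.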

How the results depend on the processing

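With TPM as deposited, the SPF response had 4 genes higher and 18 lower, the GF response 0 higher and 7 lower, GF against SPF isotype 6 called, all higher, GF against SPF aCD3 13 higher and 0 lower, and the interaction 1 called, lower. Over all genes that fit called 14.2% higher and 50.7% lower in the SPF response, and 2.46% and 4.61% in the GF response. It called 6.42% and 0.755% in GF against SPF isotype, 48.9% and 4.46% in GF against SPF aCD3, and 2.44% and 1.04% in the interaction. The median of all genes moved in that fit by -0.35 in the SPF response and by 0.34 in GF against SPF aCD3. The same fit reversed the sign of SPF differences for Nsdhl (-0.34), Sc5d (-0.30), Dhcr7 (-0.12), Srebf1 (-0.17), Scap (-0.20), Acly (-0.27), Elovl6 (-0.0155) and Fads1 (-0.0097). In GF against SPF aCD3 it reversed Sc5d (0.34), Dhcr7 (0.15), Srebf1 (0.32), Scap (0.34), Stard4 (0.17) and Acly (0.34). The calls of the GF response, 5 and all lower, went to 0 without the low-value filter and with the replicate block. They also went to 0 within run 1 and run 2, where each contrast held fewer libraries. Of all genes, 0 were called in each of these as well. With the replicate block, GF against SPF isotype had 2 called, all higher, GF against SPF aCD3 5 called with 3 lower, the SPF response 16 and the interaction 5. Over all genes the block gave 88 higher and 131 lower, 1322 and 1259, 3618 and 3580, and 399 and 410, in that order. A run term gave 2 called, all higher, in GF against SPF isotype, 7 in GF against SPF aCD3, of which 6 were among the 10, and 6 in the interaction. Over all genes that term gave 193 higher and 256 lower, 1212 and 1111, and 760 and 845 in those comparisons. The main fit gave 63 and 141, 1956 and 2032, and 646 and 735. Replicate names did not pair the libraries: 3 of 12 same-name pairs had deviations correlated above 0.1, and 1 correlated best with its own name. Leaving out each library gave 15 to 18 called in the SPF response (11 to 14 higher, 4 to 5 lower), 0 to 11 in the GF response (0 to 3 higher, 0 to 8 lower), 0 to 2 in GF against SPF isotype (0 to 2 higher, 0 lower), 4 to 11 in GF against SPF aCD3 (1 to 3 higher, 3 to 8 lower) and 2 to 7 in the interaction (all lower, 0 higher). Over all genes, the GF response had 0 called without GF aCD3 M1, and 1878 higher and 1565 lower without F1. Without F1, GF against SPF aCD3 had 842 higher and 823 lower, and without M5 2411 and 2495. The interaction had 106 and 127 without F1, and 1117 and 1342 without M1. Without SPF isotype F2, the SPF response had 3547 and 3597, and GF against SPF isotype 35 and 91. The cause of these changes was not tested. The SPF calls of Hmgcs1, Pmvk, Fdps, Ebp, Mvk, Mylip, Acat2 and Srebf2 held in every alternative run. Low counts limit Scd1, Fads2, Abca1 and Tm7sf2.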
